A study of Mus musculus with 6 samples.

Results

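The interleukin-6 (IL-6) family was examined as a set of 9 genes, found by their symbols in the deposited table of 21878 genes: the ligands Lif, Clcf1, Il11 and Il6 and the receptor chains Il6ra, Il11ra1, Lifr, Osmr and Il6st. All 9 were present, and all 9 were among the 10274 genes tested, those reaching 1 FPKM (fragments per kilobase of transcript, scaled to sequencing depth) in 3 or more of the 6 libraries. The libraries came from the mouse fibroblast line NIH3T3, immortalised cells of embryonic origin, and every one carries the label of a radiation injury. In 3 libraries the cells had received plasma-derived exosomes, small membrane vesicles, and in 3 they had received phosphate-buffered saline (PBS), all at 72 h. No dose of radiation, no source of the plasma and no separate cultures are named in the labels, so the error behind each p-value is that between libraries and may be technical. The 6 libraries include no unirradiated group.

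Cytokines of this family are secreted helical proteins that signal through gp130, the shared receptor chain encoded by Il6st. IL-6 and IL-11 first bind their own alpha chains, Il6ra and Il11ra1, and then pair gp130 chains, whereas LIF joins gp130 to the LIF receptor (Lifr) and oncostatin M joins it to the oncostatin M receptor (Osmr). The assembled receptors activate JAK kinases and the transcription factor STAT3, which in turn induces the inhibitor SOCS3. Fibroblasts are a known source of IL-6, LIF and IL-11 in wounds and inflamed tissue.

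Depth was estimated at 18800000 to 22000000 counted reads per library. Between 10080 and 10271 genes reached 1 FPKM in a library. Of all tested genes 43.8% were called at a Benjamini-Hochberg adjusted p under 0.05 by limma on log2(FPKM + 1), 25.4% raised and 18.4% lowered with exosomes. By the authors' deposited counts the balance was the other way, with 12.4% raised and 13.5% lowered of the genes that carry an adjusted p there. Of 16 fibroblast markers 15 were tested, 7 rose, 4 fell and 4 did not pass, and the remaining gene, Fap, was near 0 at 0.0396 ± 0.0264 FPKM with PBS and 0.0809 ± 0.0364 with exosomes (mean ± SD, n = 3 libraries, as in all such values). Lum rose from 74.9 ± 14.4 to 182 ± 8.36 FPKM and Col1a1 from 450.0 ± 22.7 to 782 ± 16.5, P4ha1 fell from 56.1 ± 2.01 to 34.3 ± 0.214, and Vim was 1373 ± 50.6 and 1440 ± 43.6. The 20 leukocyte markers summed to 10.1 to 15.0 FPKM in the PBS libraries and 6.45 to 7.22 in the exosome libraries, with 5 of the 20 listed at 0 throughout and the pan-leukocyte gene Ptprc at 0.0467 ± 0.0354 and 0.0344 ± 0.0100 FPKM. Of these markers 3 were tested and 2 fell, the integrin gene Itgb2 from 2.58 ± 0.218 to 1.69 ± 0.0397 FPKM (limma adjusted p = 0.00136) and Cd14 from 4.98 ± 1.85 to 2.61 ± 0.745 (0.0388). Cd68, the other tested one, did not pass at 1.90 ± 0.641 and 1.81 ± 0.330 FPKM (0.878). Csf1r, the macrophage growth factor receptor, was below the filter at 1.92 ± 1.24 and 0.295 ± 0.0752 FPKM. The 13 platelet and erythroid markers summed to 8.03 to 10.18 FPKM with PBS and 10.23 to 12.45 with exosomes. Of these 2 were tested, and Itga2b rose from 1.90 ± 0.409 to 2.80 ± 0.116 FPKM (limma adjusted p = 0.00862) while Gp1bb did not pass (0.0960). Endothelial, epithelial and hepatocyte markers summed to at most 1.93, 0.547 and 0.386 FPKM in any library. The part of the marker genes in the results was not tested.

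Most of the family was lower in exosome-treated cells. By limma 6 of the 9 genes fell (Lif, Clcf1, Il11, Lifr, Osmr and Il6ra), against 18.4% of all tested genes. Il11ra1 was the single member that rose, and Il6 and Il6st did not pass the threshold. The median log2 change of the 9 was −0.55, against 0.04 over all tested genes. The members were chosen with earlier results of these data known, so these contrasts do not test the family. The exosome values lay outside the PBS values in the same 7 genes, 6 below and 1 above, while 55.6% of all tested genes showed such a separation, 23.5% below and 32.0% above. Lif reached 1 FPKM in the PBS libraries alone and so entered the test through the group where it was high. In these bulk samples fewer cells that express a gene and less RNA per cell cannot be told apart.

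**Figure D1:**
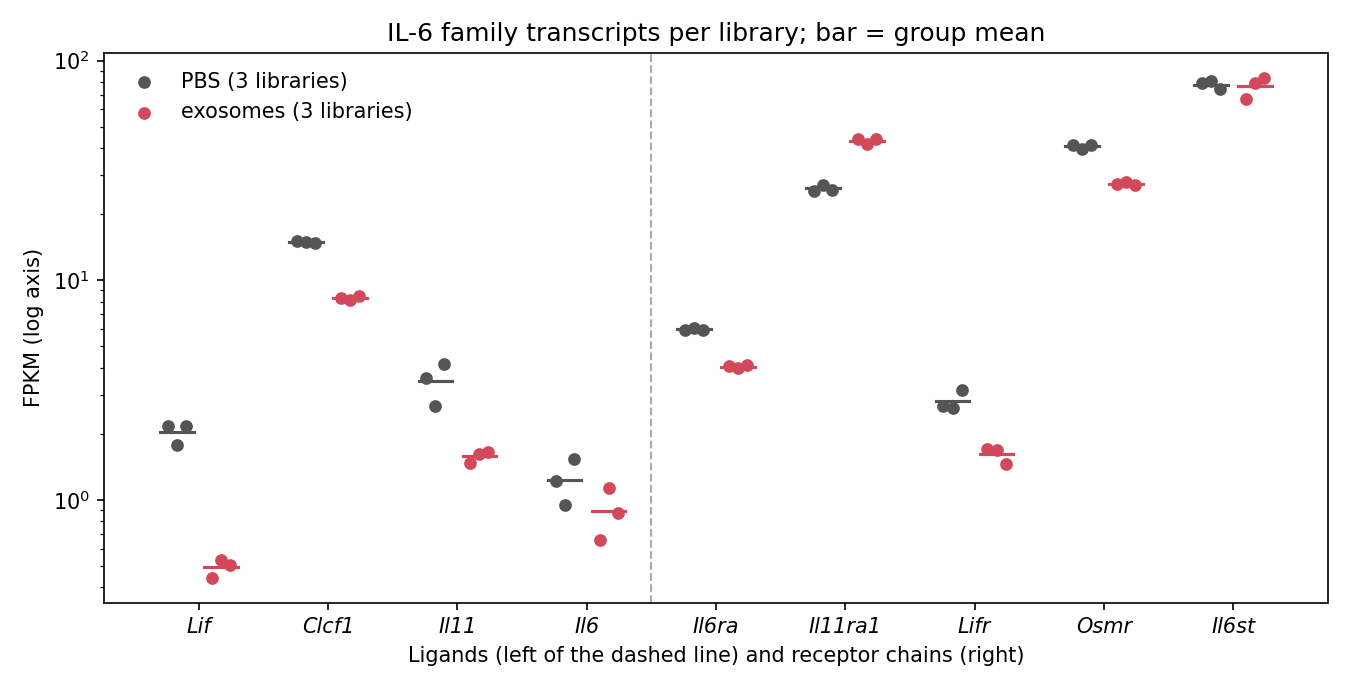
FPKM of the 9 family genes in each library on a log axis, ligands left of the dashed line and receptor chains right of it, with points for libraries and bars for group means. Lif, Clcf1, Il11, Il6ra, Lifr and Osmr sit lower in all 3 exosome libraries, Il11ra1 sits higher, and the groups overlap for Il6 and Il6st.

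Among the ligands, the largest change was that of Lif, which encodes leukemia inhibitory factor, a cytokine that keeps mouse embryonic stem cells undifferentiated. Its PBS libraries read 2.17, 1.79 and 2.18 FPKM and its exosome libraries 0.444, 0.535 and 0.506. No exosome library came near the lowest PBS library, and the group means of 2.05 ± 0.222 and 0.495 ± 0.0467 FPKM differ 4.13-fold. On the log2(FPKM + 1) scale, which shrinks genes this low, Lif fell by 1.02 ± 0.08 (SE, adjusted p = 1.22e-05), and 69 of the tested genes fell further. The authors' deposited table, computed from counts without that shrinkage, lists Lif as 4.29-fold lower (adjusted p = 8.05e-41). Behind these values stood 345, 283 and 322 reads in PBS replicates 1 to 3 and 68, 93 and 81 reads in the exosome replicates. Read numbers like these were recovered from the mean normalized count the authors give for each group, a sum of whole multiples of 3 steps, 1 per library.

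Clcf1 encodes cardiotrophin-like cytokine factor 1, which signals through the ciliary neurotrophic factor receptor together with gp130 and the LIF receptor. It was the most abundant of the 4 ligands, at 15.1, 15.0 and 14.7 FPKM with PBS and 8.30, 8.14 and 8.51 with exosomes. Its libraries agreed closely within each group, and the group means of 14.9 ± 0.212 and 8.32 ± 0.186 FPKM differ 1.80-fold (log2 change −0.77 ± 0.05, adjusted p = 3.76e-06). Between 785 and 843 reads per PBS library and 447 to 518 per exosome library were counted for Clcf1, and the authors' deposited table gives it as 1.88-fold lower.

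Il11 encodes interleukin-11, a cytokine that fibroblasts release in response to TGF-beta. The 3 PBS libraries gave 3.61, 2.67 and 4.14 FPKM and the 3 exosome libraries 1.48, 1.62 and 1.65. PBS replicate 2 was the lowest of its group and still above every exosome library. The means of 3.47 ± 0.744 and 1.59 ± 0.0923 FPKM differ 2.19-fold (log2 change −0.78 ± 0.11, adjusted p = 0.000600), and the authors' deposited table lists 2.16-fold (adjusted p = 0.000195). Reads for Il11 numbered 208, 145 and 215 with PBS and 89, 94 and 104 with exosomes.

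Il6, the founding cytokine of the family, was the ligand that did not pass. It read 1.22, 0.948 and 1.54 FPKM with PBS and 0.656, 1.14 and 0.877 with exosomes, so that the groups overlapped. The log2 change was −0.24 ± 0.12 (adjusted p = 0.126), and without PBS replicate 2, its lowest PBS library, −0.34 with an adjusted p of 0.0426. The gene rested on 41, 32 and 46 reads in the PBS libraries and 20, 39 and 33 in the exosome libraries. Summed over libraries, 92 reads against 119 give a ratio of 0.711 after scaling for depth, with a 95% Clopper-Pearson interval of 0.535 to 0.941 that covers counting error only, not the spread between libraries. The interval is wide and does not include equal levels, but the libraries of the groups overlapped, and no change of Il6 was called.

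**Figure D2:**
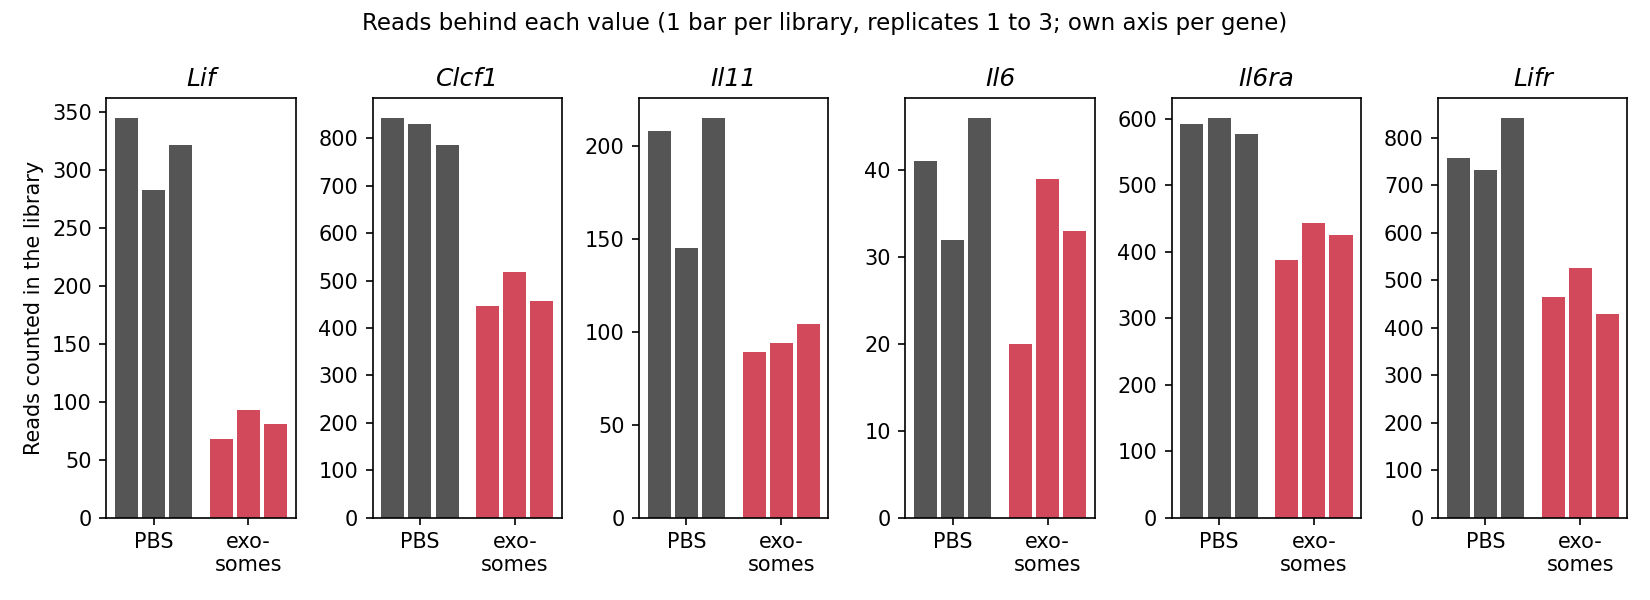
Reads counted in each library for the 6 family genes of lowest mean count, the only ones attempted. Each gene has 3 PBS bars and 3 exosome bars in the order of replicates, on its own axis from 0. Lif drops from 283 to 345 reads to 68 to 93, while Il6 stays at 20 to 46 reads in all 6 libraries and overlaps.

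Promoters of 3 ligands are shown because they hold the same short motif. RefSeq promoter windows on build GRCm38.p6 were at hand for 8 of the 9 genes, 11 windows in all, and the 250 bases before each start were searched. The AP-1 motif TGANTCA (both strands) occurred in the windows of Il6, Lif and 1 of the 2 starts of Il11, in capitals below, and in no window of the 5 receptor genes. It occurs in 6.75% of the 32851 mouse windows of this length. The Il6 window also held the NF-kB motif (both strands, 1.41% of windows), likewise in capitals as the second run. The STAT motif TTCNNNGAA (both strands, 7.02% of windows), the cAMP response element TGACGTCA (both strands, 1.55%) and the TATA motif TATAAA (given strand, 7.59%) had no match in any of the 11 windows. The motifs found did not overlap one another, and a match is a stretch of letters, not a measured binding site.
Lif, chr11:4257318-4257567, plus strand: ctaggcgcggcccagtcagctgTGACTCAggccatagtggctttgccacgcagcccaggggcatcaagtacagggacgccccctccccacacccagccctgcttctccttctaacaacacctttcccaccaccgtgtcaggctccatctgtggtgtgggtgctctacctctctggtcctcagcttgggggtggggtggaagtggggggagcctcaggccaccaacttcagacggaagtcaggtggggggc
Il11, second start, chr7:4778142-4778391, minus strand: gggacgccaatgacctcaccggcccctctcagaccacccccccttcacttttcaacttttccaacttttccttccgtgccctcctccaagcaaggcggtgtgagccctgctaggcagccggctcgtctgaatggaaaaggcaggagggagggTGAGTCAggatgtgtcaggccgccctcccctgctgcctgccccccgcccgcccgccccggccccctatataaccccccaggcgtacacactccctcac
Il6, chr5:30012864-30013113, plus strand: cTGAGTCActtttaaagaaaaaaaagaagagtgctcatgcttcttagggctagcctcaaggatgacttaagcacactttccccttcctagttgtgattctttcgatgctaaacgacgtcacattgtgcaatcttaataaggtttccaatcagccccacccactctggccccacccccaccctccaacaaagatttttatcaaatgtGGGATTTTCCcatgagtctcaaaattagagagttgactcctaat

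The AP-1 letters begin 228 bases before the start in Lif, 98 in Il11 and 249 in Il6, and the NF-kB letters of Il6 begin 44 bases before its start. AP-1 is the dimer of Fos and Jun proteins, and the genes of 3 of its subunits were those with the smallest p among the 13 of 26 lowered genes on a list of factors known to induce these cytokines. Fos fell from 10.5 ± 0.588 to 1.16 ± 0.154 FPKM, Junb from 42.2 ± 3.27 to 11.7 ± 1.22 and Fosl1 from 55.4 ± 4.78 to 16.4 ± 1.35. Jun also fell, from 63.3 ± 5.81 to 37.5 ± 2.63 FPKM, while Fosl2 (limma adjusted p = 0.132) and Fosb (0.994) did not pass. On the same list 2 genes rose, Jund from 14.3 ± 1.29 to 18.9 ± 1.33 FPKM and Atf4, a stress-response factor, from 257 ± 2.85 to 301 ± 17.4, and 11 did not pass. Over all tested genes 18.4% were lowered and 25.4% raised. The median change of the 26 was −0.13. Il6 held the AP-1 motif but was not called, and Clcf1 had no promoter window. Whether these factors bear on the ligands was not tested.

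Other ligands of the family were looked up as well. Ctf1, cardiotrophin-1, rose from 6.95 ± 1.09 to 9.97 ± 1.10 FPKM (adjusted p = 0.00721), a call that the authors' deposited table does not share (adjusted p = 0.0556). Cntf, ciliary neurotrophic factor, was below the filter at 0.896 ± 0.113 and 0.612 ± 0.158 FPKM. Osm, which encodes oncostatin M, Ctf2 and Ebi3 were listed at 0 in all 6 libraries with a mean count of 0, and a count of 0 allows up to 3 reads in a library. Il27 and Il31 had mean normalized counts of 1.24 or less in either group.

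Among the receptor chains, the alpha chains of the IL-6 and IL-11 receptors went opposite ways. Il6ra encodes the chain that binds IL-6 before gp130 does and that also circulates in a soluble form. PBS libraries had 5.96, 6.07 and 5.96 FPKM of it and exosome libraries 4.06, 3.97 and 4.10, a fall (log2 change −0.47 ± 0.05, adjusted p = 0.000142). Its libraries spread by an SD of 0.0672 FPKM with PBS and 0.0666 with exosomes, far less than the distance between the groups. Between 577 and 601 reads per PBS library and 387 to 443 per exosome library were counted.

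Il11ra1, the IL-11 binding chain, rose from 25.5, 27.2 and 25.9 FPKM to 44.1, 41.6 and 44.1 (log2 change 0.70 ± 0.05, adjusted p = 5.85e-06). Every exosome library stood above every PBS library, and 153 of the tested genes rose further. The authors' deposited table gives a 1.55-fold rise (adjusted p = 1.10e-16). Il11ra1 has a near-identical copy, Il11ra2, listed at 0.0357, 0.0898 and 0.561 FPKM with PBS and 0.113, 0.939 and 0.778 with exosomes. No source used here says how reads were shared between the copies, so the level of Il11ra1 is uncertain. The ratio of Il11ra1 to Il6ra within a library was 4.28, 4.48 and 4.34 with PBS and 10.8, 10.5 and 10.7 with exosomes.

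The signal chains of LIF and oncostatin M both fell. Lifr, the LIF receptor, went from 2.68, 2.64 and 3.17 FPKM to 1.71, 1.69 and 1.46 (log2 change −0.55 ± 0.08, adjusted p = 0.000531). PBS replicate 3 was the highest library of Lifr, and the highest exosome library lay below the lowest PBS library. Osmr, the oncostatin M receptor, was more abundant, at 41.2, 39.4 and 41.3 FPKM with PBS and 27.3, 28.0 and 27.2 with exosomes (log2 change −0.55 ± 0.04, adjusted p = 1.62e-05). Lifr is the next protein-coding gene after Osmr on chromosome 15. In the authors' deposited table Lifr was 1.79-fold and Osmr 1.53-fold lower.

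Il6st, which encodes gp130, was the most abundant member and did not pass. Its libraries read 78.8, 80.5 and 73.8 FPKM with PBS and 67.1, 79.3 and 83.3 with exosomes, and exosome replicate 1 was the lowest of the 6. The log2 change was −0.03 ± 0.08 (adjusted p = 0.800), turned to 0.06 without exosome replicate 1, and the authors' deposited fold was 0.948 (adjusted p = 0.674). With Il6st overlapping between groups and its partners lower, the ratio of Il6st to Lifr was 29.4, 30.5 and 23.3 with PBS and 39.3, 47.0 and 57.0 with exosomes. The ratio of Il6st to Osmr was 1.91, 2.04 and 1.79 against 2.46, 2.83 and 3.06, so that neither ratio overlapped between groups.

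The remaining receptor genes of the family were near 0. Cntfr, the receptor through which CLCF1 acts, had 0.0139 ± 0.0148 FPKM with PBS and 0.0226 ± 0.0197 with exosomes, at mean normalized counts of 2.78 and 4.00. Il27ra and Il31ra had mean normalized counts of 0.675 and 7.66 with PBS and 7.90 and 7.16 with exosomes.

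Ranked by level per transcript length, the order with PBS was Il6st, Osmr, Il11ra1, Clcf1, Il6ra, Il11, Lifr, Lif and Il6. Neighbours in this order were separate in their 3 values except Il11 and Lifr, which overlapped. With exosomes the order was Il6st, Il11ra1, Osmr, Clcf1, Il6ra, Lifr, Il11, Il6 and Lif, and again only Lifr and Il11 overlapped. Thus Il11ra1 stood above Osmr with exosomes and below it with PBS, and Lif changed places with Il6 at the bottom.

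**Figure D3:**
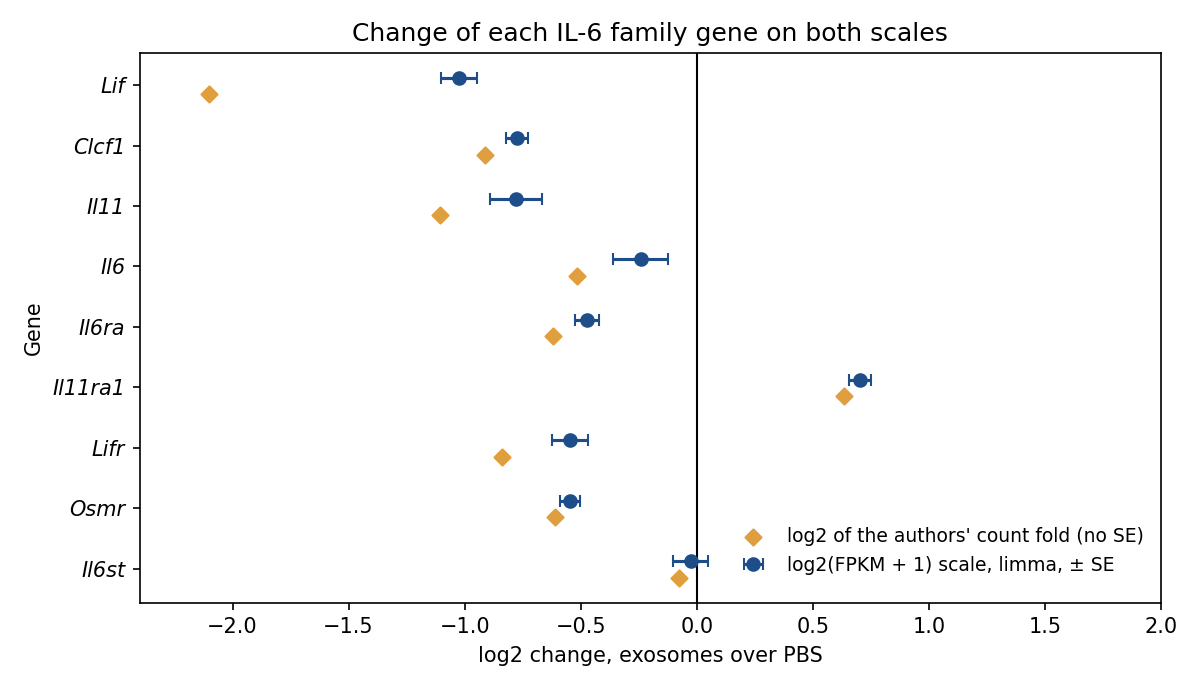
Log2 change of exosomes over PBS for each gene, as fitted by limma on log2(FPKM + 1) with its SE and as the log2 of the fold in the authors' deposited table. Both scales give the same direction for all 9 genes, and the count scale puts Lif at −2.10 where the FPKM scale puts it at −1.02.

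**Figure D4:**
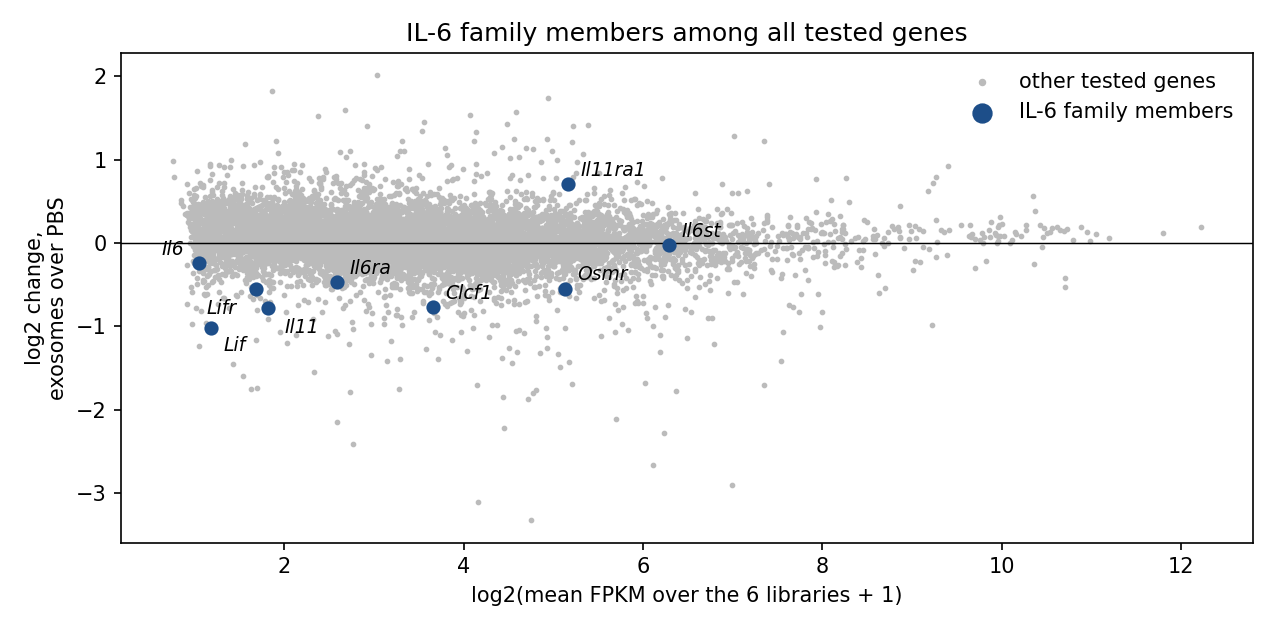
Log2 change of exosomes over PBS against the mean level over the 6 libraries for all tested genes (grey) and the 9 family genes (blue). Lif lies at the low-expression end with a change of −1.02, Il11ra1 lies above the main cloud, and Il6st lies on the line of no change.

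Downstream of the receptors, JAK and STAT genes moved in both directions. Of 11 genes listed 10 were tested, 3 rose, 2 fell and 5 did not pass, with a median of 0.07. These counts are close to the background of 25.4% raised and 18.4% lowered over all tested genes, against which the lists that follow also stand. All lists were chosen with earlier results of these data known, so their shares do not test them. Stat3, the main transcription factor of the pathway, fell by 0.22 ± 0.04 on the log2 scale (adjusted p = 0.00265), from 43.6, 43.0 and 44.7 FPKM to 38.0, 37.3 and 37.4. Jak1, the kinase that gp130 relies on, fell from 48.9 ± 2.44 to 43.2 ± 1.93 FPKM (adjusted p = 0.0219). The Jak1 call ended without PBS replicate 2 (adjusted p = 0.0649), exosome replicate 1 (0.0759) or exosome replicate 2 (0.0703), and with any of these 1 JAK or STAT gene was called lower. Among the genes that rose were Stat2, which carries interferon signals, from 7.24 ± 0.262 to 13.5 ± 1.00 FPKM, and Jak2, from 4.45 ± 0.166 to 5.38 ± 0.280 (adjusted p = 0.0126, and 0.0517 without exosome replicate 2).

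Adaptors and kinases of the RAS, PI3K and SRC branches of the pathway gave 6 raised, 4 lowered and 13 not past the threshold of 23 tested, with a median of 0.03, again close to the background. Fyn, a SRC-family kinase, rose from 13.2 ± 0.789 to 16.8 ± 0.341 FPKM and Pik3r1, a regulatory subunit of PI3K, from 10.7 ± 0.360 to 13.0 ± 0.536. Hras fell from 6.61 ± 0.286 to 5.35 ± 0.409 FPKM and Pik3cb from 5.80 ± 0.492 to 4.34 ± 0.459. Src itself rose from 9.69 ± 0.499 to 11.6 ± 0.570 FPKM, a call not in the authors' deposited table (adjusted p = 0.0906). Ptpn11, the SHP2 phosphatase that binds gp130, fell from 36.0 ± 1.36 to 32.2 ± 0.644 FPKM, but was not called once PBS replicate 1 was left out (adjusted p = 0.0695), nor without PBS replicate 3 (0.0666), exosome replicate 1 (0.0618) or exosome replicate 2 (0.0556). Raised genes numbered 3 without PBS replicate 1 or 3 or exosome replicate 1 or 3, and lowered genes 2 without PBS replicate 1 or exosome replicate 1 or 2.

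Inhibitors of the pathway were more often lower than higher: of 14 tested SOCS, PIAS and phosphatase genes 6 fell, 2 rose and 6 did not pass, with a median of −0.14. Socs3, which blocks gp130 and is itself induced by STAT3, fell by 0.52 ± 0.05 on the log2 scale (adjusted p = 6.64e-05), from 13.2 ± 0.606 to 8.86 ± 0.128 FPKM. Socs5 fell from 27.0 ± 0.293 to 18.7 ± 0.888 FPKM and Pias2 from 14.0 ± 0.233 to 11.7 ± 0.485. Pias3, an inhibitor of STAT3, rose from 10.3 ± 0.463 to 12.6 ± 0.808 FPKM, and Socs2, best known for restraining growth hormone signals, from 0.666 ± 0.0617 to 1.10 ± 0.0893. Socs2 reached 1 FPKM in the exosome libraries alone and so entered the test through the group where it was high.

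Genes linked to STAT3 as targets were lower in 24 of 31 tested members, with 3 higher and 4 not past the threshold, and a median of −0.52. This list too was chosen with earlier results known, so its share is not a test. Of the 40 genes listed, 5 are also inducing factors, Fos, Junb, Fosl1, Cebpb and Cebpd, and growth factors induce several of them by routes other than STAT3. Stat3 is also counted among the JAK and STAT genes, and Socs3 and Cish among the inhibitors, each as lowered. Osmr, itself a family member, is among the 24. Of the genes that fell, Fos, Junb and Fosl1 had the smallest p, with the values given above. The 3 that rose were Nnmt, from 2.78 ± 0.391 to 4.08 ± 0.578 FPKM, Nfil3, from 6.31 ± 0.983 to 8.17 ± 0.307, and Lbp, from 1.10 ± 0.328 to 1.61 ± 0.0997. Without exosome replicate 1 the calls of Nfil3 (adjusted p = 0.0515) and Lbp (0.0678) ended and 1 raised gene was left. The Lbp call also ended when any of 4 other libraries was left out, PBS replicate 1 (0.0706), PBS replicate 3 (0.0872), exosome replicate 2 (0.0786) and exosome replicate 3 (0.101).

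Regulators of Il6 mRNA stability were lower in 6 of 10 tested genes, with 1 higher and 3 not past the threshold, and a median of −0.19. Zfp36, which encodes tristetraprolin and directs AU-rich cytokine mRNAs to decay, fell by 1.26 ± 0.08 on the log2 scale (adjusted p = 5.09e-06), from 31.2 ± 3.75 to 12.4 ± 0.570 FPKM. Zc3h12a, the nuclease Regnase-1 that cleaves Il6 mRNA, fell from 3.60, 2.98 and 3.24 FPKM to 1.99, 1.82 and 2.00. Zfp36l2 fell from 148 ± 6.22 to 96.9 ± 4.50 FPKM, while its relative Zfp36l1 rose from 92.6 ± 3.65 to 112 ± 2.60. The 6 lowered genes include Arid5a, which reached 1 FPKM in the PBS libraries alone and so entered the test through that group.

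Genes that control the shedding of receptors from the cell surface gave 2 lowered and 3 not past the threshold of 5. Adam17, the protease that releases soluble IL-6 receptor, was 18.2 ± 0.230 FPKM with PBS and 18.7 ± 0.248 with exosomes (log2 change 0.03 ± 0.04, adjusted p = 0.543), and the authors' deposited fold had the other sign at a log2 of −0.0034. Rhbdf1, which carries ADAM17 to the surface, fell from 17.3 ± 0.242 to 13.4 ± 0.414 FPKM, and Timp3, its inhibitor, from 153 ± 13.5 to 110 ± 5.74.

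Upstream signals that induce IL-6 family cytokines were lower in 10 of 19 tested genes, with 2 higher and 7 not past the threshold, and a median of −0.22. Ptgs2 and Ptges, which make prostaglandin E2, fell from 124 ± 18.7 to 24.5 ± 1.20 and from 31.0 ± 1.31 to 18.5 ± 0.492 FPKM, and Tlr4, the receptor of bacterial lipopolysaccharide, from 15.0 ± 0.866 to 8.04 ± 0.456. Pdgfra, a receptor of platelet-derived growth factor, rose from 128 ± 7.29 to 209 ± 3.95 FPKM, and Tgfb3 from 19.0 ± 1.60 to 26.6 ± 0.967. Il1a and Il1b, the interleukin-1 genes, were listed at 0 in every library with a mean count of 0, and Tnf had mean normalized counts of 0 with PBS and 0.960 with exosomes.

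**Figure D5:**
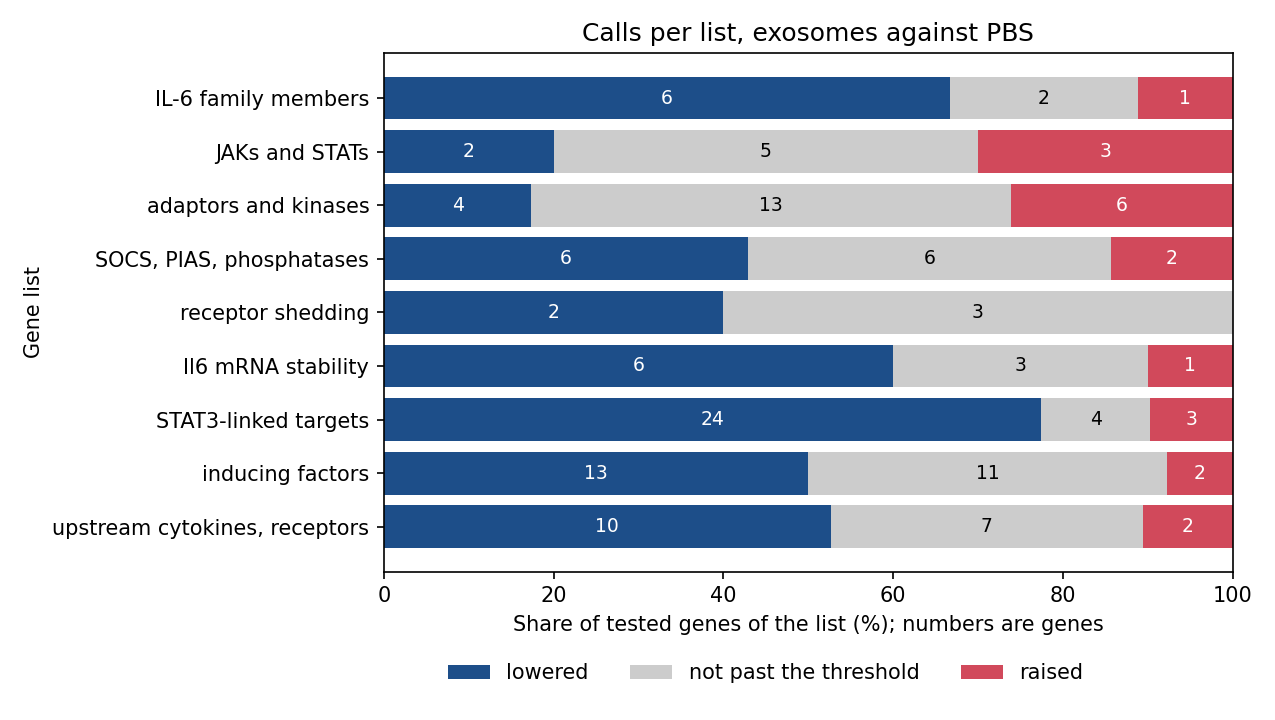
Share of the tested genes of each list that were lowered, not past the threshold or raised with exosomes (limma, adjusted p under 0.05), with the number of genes printed in each bar. STAT3-linked targets have 24 of 31 genes lowered, and JAK and STAT genes have 2 lowered and 3 raised.

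The genes whose pattern was most like that of Lif and of Il11ra1, the members with the largest fall and the largest rise, were found by the root mean square difference of centred log2(FPKM + 1) over the 6 libraries. This scale shrinks low genes, so a gene of higher level can lie near Lif with a smaller fold change. Lif, 4.13-fold lower by mean FPKM, has a log2 change of −1.02 there, and Tm4sf1 one of −1.04. Nearest to Lif were Tm4sf1 (difference 0.0321), Gch1 (0.0442), Nr1d1 (0.0495), Phlda1 (0.0576) and Etv1 (0.0577). Tm4sf1, a surface protein of the tetraspanin-like L6 family, went from 75.9 ± 4.81 to 36.3 ± 1.23 FPKM, and Etv1, a transcription factor of the Ets family, from 4.25 ± 0.204 to 1.49 ± 0.0935. Gch1, which starts tetrahydrobiopterin synthesis, was low like Lif, at 1.60 ± 0.267 and 0.315 ± 0.0373 FPKM. Nearest to Il11ra1 were Tpst1 (difference 0.0258), Pold4 (0.0296), Stard10 (0.0310), P2rx3 (0.0442) and Pdgfra (0.0463). Tpst1, a tyrosine sulfotransferase, went from 44.9 ± 1.99 to 75.1 ± 2.20 FPKM.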

How the data were processed

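RNA was sequenced from stranded mRNA libraries as paired ends, per the labels' protocols. Tools that the authors used, per the submitters' processing notes, include HISAT2, Bowtie2, StringTie, Cufflinks, HTSeq, DESeq, SAMtools and Trimmomatic, with build mm9 and no stated roles. The deposited expression values per library are read as FPKM, an inference: their column sums differ, and longer transcripts had more of the authors' mean count for the same value (Spearman 0.77 over 8901 genes). The authors also deposited, per the file headers, group means of normalized counts (a signal scaled by size factors), their ratio as a fold change, and p-values with adjusted p-values. All 27 gene names that a spreadsheet had turned into dates were repaired by Entrez identifier.

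Genes reaching 1 FPKM in no fewer than 3 libraries were tested on log2(FPKM + 1) by limma 3.58.1 in R 4.3.3 (trend, robust, group as the only term, two-sided), adjusted over all 10274 genes, and the fit was tested on simulated data. On log2(FPKM + 1) the fold change of a low gene is understated. Counts per library were not analysed as such, so no count model was fitted. For the 6 members of lowest mean count, reads per library were worked out from the deposited group means. The 1 combination of whole reads whose library shares lay within 10% of those of the FPKM was kept. Il11ra1, Osmr and Il6st lay above a preset limit on the mean count and were not attempted. This step was added after the data were seen.

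No source used here says whether counting used strand. In RefSeq 5 of the 9 members (Il6, Il6ra, Il11, Il11ra1 and Clcf1) overlap another gene, so their values are uncertain to that extent. Tmem190, which overlaps Il11, was listed at 0 in all libraries. Ccl27a, which overlaps Il11ra1, was at 0.350 ± 0.0809 FPKM with PBS and 0.506 ± 0.234 with exosomes, at mean normalized counts of 39.5 and 48.7. Named were all members, the other family genes, Stat3, Jak1, Socs3 and Adam17, and from each list the 3 called genes of smallest p in each direction, with the 5 genes most like the members of largest rise and fall. A few list members at or near 0, the genes behind the marker check and the genes shared by 2 lists were named after their values were seen. So were Jun, Fosl2 and Fosb. Some genes that this rule names are not reported here. The members and lists were chosen with earlier results of these data known. Alternatives covered filters, pseudocounts, scaling, variance settings, a replicate block, leaving out each library and the authors' deposited calls.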

Additional observations from a re-analysis of the deposited data

How the results depend on the processing

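The calls and directions of Lif, Clcf1, Il11, Il6ra, Il11ra1, Lifr and Osmr held under every alternative in which each could be tested (14 or 15 apiece), with log2 changes of −2.10 to −0.99 for Lif and 0.63 to 0.73 for Il11ra1. Fits that left out a library kept the genes that passed the filter on all 6. Lif would not have passed it anew without any of its PBS libraries. With at least 5 FPKM asked for, 5 members were tested and 3 were lowered, since fewer genes entered. Il6 was called without PBS replicate 2 (log2 change −0.34, adjusted p = 0.0426) and under no other alternative, where its adjusted p reached 0.364. Leaving out each library in turn gave Il6st log2 changes of −0.0885 to 0.0649, the sign turning without exosome replicate 1, and Adam17 turned in the authors' deposited table (log2 of −0.0034), and neither was called there. That table calls 1723 of the genes tested here raised and 2031 lowered, against 2612 and 1889, so that raised genes made up 45.9% of calls instead of 58.0%. The cause was not tested. With the replicate number as a block, 1 member was raised and 6 were lowered, as without it, and 2288 and 1626 of all tested genes were called. The block raised 3 adaptor and kinase genes against 6, as did the authors' deposited table. Correlations of same-numbered libraries' deviations were −0.12, −0.0212 and −0.295 and gave no sign that the numbers pair the libraries. With 3 libraries per group these correlations cannot exclude a pairing. At 5 FPKM 1 inhibitor and 1 STAT3-linked gene were raised. Lbp was not called without the filter (adjusted p = 0.0818) or in the authors' deposited table (0.122). Il6, at 20 to 46 reads per library, is the member that depth limits most.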
